A study of Mus musculus with 24 samples.

Results

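The genes described here are 29 genes of cholesterol synthesis and its control by the sterol regulatory element binding proteins (SREBPs), measured in mouse kidney. They comprise the enzymes from the mevalonate pathway to cholesterol, the SREBP genes with their partners, 2 genes of cholesterol handling and 3 genes of fatty acid synthesis. A gene was taken as measured where a probe set carried its symbol and no other, and the probe set with the highest mean stood for it. By that rule 27 of the 29 genes were measured, out of 18782 genes on the array, and *Acat2* and *Soat1* were not. *Idi1* and *Scap* had a second probe set each.

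RNA from kidney tissue of 24 mice aged 12 weeks was hybridised to Mouse Gene 1.0 ST arrays from Affymetrix, 1 array per mouse. There were 6 mice of each sex in the normotensive BPN/3J strain and 6 of each sex in the hypertensive BPH/2J strain, with no agent given, and kidneys were taken in the inactive part of the day. The 2 strains were bred selectively for normal and for high blood pressure, so a strain difference covers every locus at which they differ, and blood pressure was not taken in the mice of the arrays. The study asked which kidney genes differ between the strains in both sexes. Levels are log2 values after RMA, the array normalisation of the study, so that a difference of 1 is a doubling, and in whole tissue fewer cells of a type and less RNA per cell cannot be told apart.

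Cells make cholesterol from acetyl-CoA through mevalonate, isoprenoid intermediates, squalene and lanosterol. When sterols run low, the escort protein SCAP carries SREBPs from the endoplasmic reticulum to the Golgi, where proteases release the fragment that enters the nucleus and switches on these enzymes, and when sterols are plentiful the INSIG proteins hold SCAP back. SREBP-2 acts chiefly on cholesterol genes and SREBP-1c on fatty acid genes, and the kidney tubule, like most tissues, makes cholesterol for its own membranes.

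SREBPs bind sterol regulatory elements, commonly next to sites of the cofactor NF-Y, so the letters before the start site are shown for 4 genes that the results turn on, *Hmgcs1* and *Insig1*, lower in BPH/2J of both sexes, and *Idi1* and *Cyp51*, whose strain difference was not the same in males and females. Each sequence is the 250 bases upstream of the start site, read on the gene's strand from the RefSeq promoter table of build GRCm38.p6. It is the reference sequence and not that of BPH/2J or BPN/3J. Capitals mark TCACNCCAC, the core of a sterol regulatory element, and CCAAT, the NF-Y box, which reads ATTGG on the opposite strand.
Hmgcs1 (chr13:119690101-119690350, plus strand): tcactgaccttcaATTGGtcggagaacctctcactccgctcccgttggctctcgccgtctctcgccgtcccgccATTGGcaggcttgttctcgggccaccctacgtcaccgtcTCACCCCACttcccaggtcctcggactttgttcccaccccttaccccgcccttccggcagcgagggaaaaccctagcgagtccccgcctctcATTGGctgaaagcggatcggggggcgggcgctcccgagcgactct
Insig1 (chr5:28071162-28071411, plus strand): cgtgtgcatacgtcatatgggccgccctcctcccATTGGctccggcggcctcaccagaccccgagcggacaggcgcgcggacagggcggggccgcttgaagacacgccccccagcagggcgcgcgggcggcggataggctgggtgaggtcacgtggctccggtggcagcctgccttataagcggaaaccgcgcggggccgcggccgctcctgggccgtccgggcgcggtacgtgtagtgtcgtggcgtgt
Idi1 (chr13:8885356-8885605, plus strand): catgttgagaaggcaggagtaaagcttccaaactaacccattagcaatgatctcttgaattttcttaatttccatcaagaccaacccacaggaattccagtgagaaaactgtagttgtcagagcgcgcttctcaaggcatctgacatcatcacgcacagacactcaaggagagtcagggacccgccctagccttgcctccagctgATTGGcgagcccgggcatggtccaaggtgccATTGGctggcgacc
Cyp51 (chr5:4104698-4104947, minus strand): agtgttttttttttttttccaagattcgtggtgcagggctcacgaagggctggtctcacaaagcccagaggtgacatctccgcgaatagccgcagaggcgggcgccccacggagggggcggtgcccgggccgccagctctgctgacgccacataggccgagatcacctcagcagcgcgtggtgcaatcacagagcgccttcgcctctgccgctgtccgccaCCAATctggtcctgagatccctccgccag

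Of the 27 measured genes, 21 had at least 1 promoter in the table (29 promoters). CCAAT was present on either strand in 20 of these 21 genes (95.2%), against 37.5% of 27025 genes, or in 72.4% of their promoters against 33.8% of 32851 promoters. GGGCGG, the letters of an Sp1 box, was present in 18 of 21 genes (85.7%, against 35.4% of genes). CACGTG, an E-box that SREBPs can also bind, was present in 5 of 21, *Dhcr7*, *Hsd17b7*, *Insig1*, *Sc5d* and *Scap* (23.8%, against 6.86%). TCACNCCAC was found in *Hmgcs1* alone, at base −137 from the start site (4.76%, against 1.22%). Both strands were searched, and none of the 4 strings contains another. These matches describe the letters in this window and not binding.

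All 27 genes lay in the upper part of the array's range. The lowest mean was that of *Pmvk*, 7.96, which is above 61.6% of probe sets, and the highest was that of *Scd1*, 13.43. Kidney tubule markers, among them *Umod* (13.45 to 13.76), gave a list mean of 12.74 to 12.88 on every array. Single markers could vary more, such as *Slc22a6* (11.88 to 13.20). The sexes did not overlap for 7 of the 10 markers in each strain, 4 higher and 3 lower in females. Over all probe sets 17.6% did not overlap in BPN/3J and 18.2% in BPH/2J. Sex differences of the markers ran from −0.98 to 0.28 in BPN/3J and from −0.91 to 0.38 in BPH/2J. Genes of other tissues varied between mice of one group. Averaged over 18 hepatocyte genes, the level ran from 6.62 to 11.79, that of 10 adrenal cortex genes from 5.74 to 9.80 and that of 9 adipocyte genes from 7.34 to 9.30. *Alb*, the gene of serum albumin, exceeded 13 on 3 arrays, BPN/3J female arrays 2 and 5 and BPH/2J female array 3, and calls in females that change without these *Alb*-rich arrays are given both ways.

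In males, 18 of the 27 genes differed between the strains at a Benjamini-Hochberg adjusted p under 0.05 in limma, 14 lower and 4 higher in BPH/2J, where 15.2% of all probe sets differed (7.70% lower and 7.48% higher). In females 6 genes were lower in BPH/2J and 0 higher, where 14.5% of probe sets differed (6.48% lower and 8.01% higher). Without the 3 *Alb*-rich arrays the female counts were 6 lower and 1 higher, where 10.5% differed. The 0 higher genes compare with 13 genes at an unadjusted p under 0.05 in either direction, and the methods' t-test with the Benjamini-Hochberg adjustment called 6 in females. At the Bonferroni threshold of the methods the male count was 3 (*Hmgcs1*, *Idi1* and *Cyp51*, with 2.56% of probe sets) and the female count 1 (*Hmgcs1*, with 2.36%). The median difference over the 27 genes was −0.16 in males and −0.14 in females, and −0.07 in females without the 3 *Alb*-rich arrays. Over all probe sets the median difference in females was 0.02. Groups did not overlap for 14 genes in males and 6 in females, against 9.65% and 9.34% of probe sets.

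Lower in BPH/2J in both sexes were 5 genes, *Hmgcs1*, *Mvd*, *Ggps1*, *Insig1* and *Srebf1*. They are 5 of the 14 genes lower in males and 5 of the 6 lower in females, and 8.09% of all probe sets were called in the same direction in both comparisons. The levels of these genes in each array are plotted with those of 3 genes whose strain difference depended on sex.

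**Figure D1:**
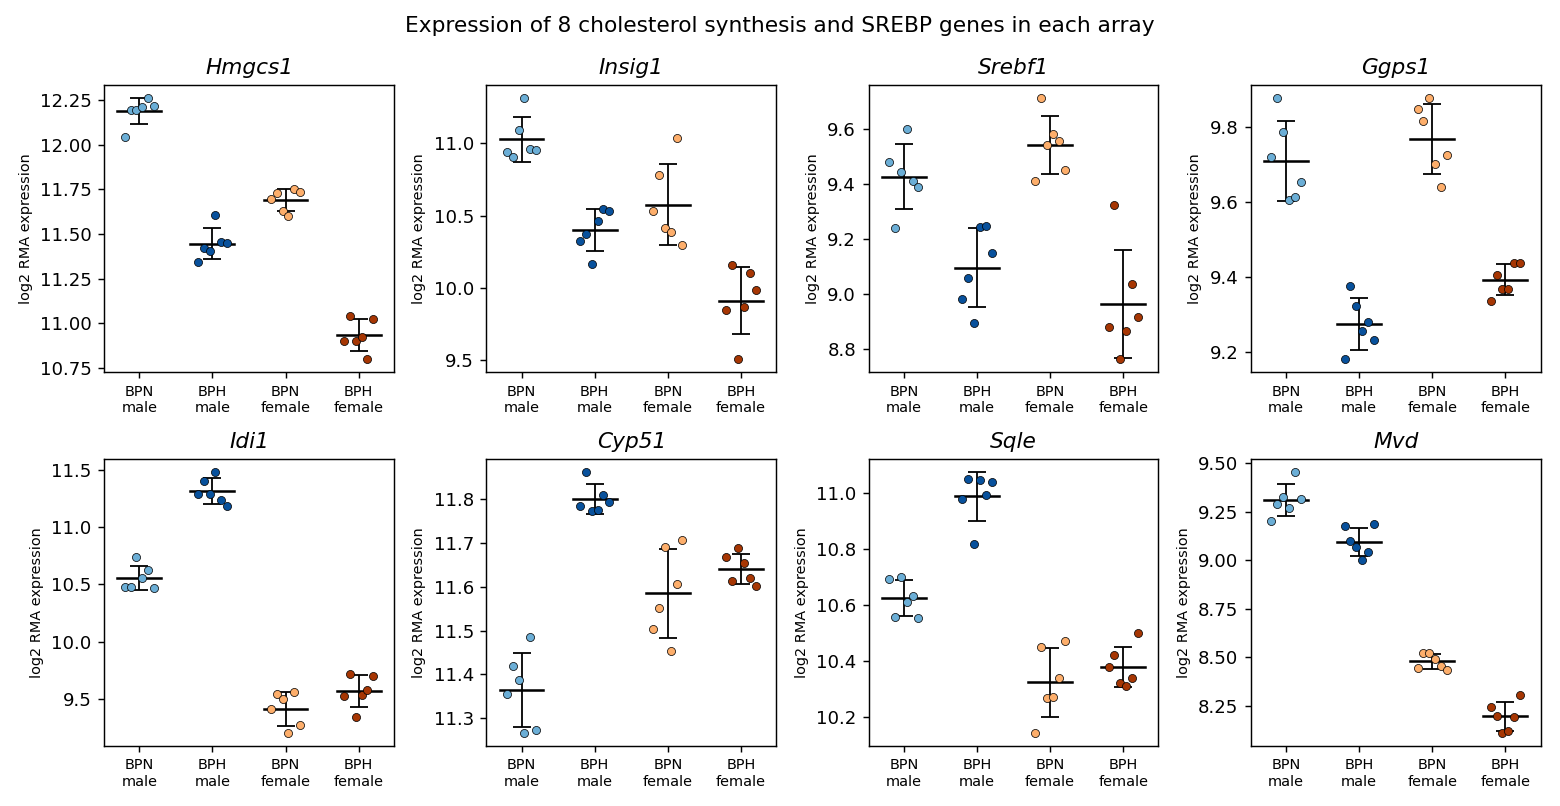
Log2 RMA expression (vertical axes) of 8 genes in the 4 groups (horizontal axes), with 1 point per array, a line at the group mean and bars of 1 SD (n = 6). *Hmgcs1*, *Insig1*, *Ggps1* and *Mvd* are lower in BPH/2J of both sexes with no overlap, *Srebf1* is lower with a small overlap in males, and *Idi1*, *Cyp51* and *Sqle* are higher in male BPH/2J mice while the female groups overlap.

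*Hmgcs1* encodes HMG-CoA synthase, the enzyme that makes HMG-CoA for the mevalonate pathway. Its level was 12.05 to 12.26 in male BPN/3J mice (median 12.20), 11.34 to 11.60 in male BPH/2J mice (11.44), 11.60 to 11.75 in female BPN/3J mice (11.71) and 10.80 to 11.04 in female BPH/2J mice (10.91). Every BPH/2J array lay below every BPN/3J array of the same sex. The difference was −0.74 (SE 0.0496, 1.67-fold lower, limma adjusted p = 1.92e-07) in males and −0.76 (SE 0.0475, 1.69-fold lower, adjusted p = 1.67e-07) in females. Without the *Alb*-rich arrays the female value was −0.73 (adjusted p = 3.05e-05). The 2 strain differences differed by −0.02 (95% interval −0.16 to 0.12), which did not pass the interaction test.

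*Insig1* encodes one of the proteins that retain SCAP and is itself an SREBP target. It measured 10.90 to 11.31 in male BPN/3J mice (median 10.96), 10.16 to 10.55 in male BPH/2J mice (10.42), 10.30 to 11.04 in female BPN/3J mice (10.48) and 9.51 to 10.16 in female BPH/2J mice (9.93). The strains did not overlap in either sex. The level fell by 0.63 on the log2 scale in males (−0.63, SE 0.0809, 1.54-fold, limma adjusted p = 0.000106) and by 0.66 in females (−0.66, SE 0.135, 1.58-fold, adjusted p = 0.00439). In females it was −0.42 (adjusted p = 0.00654) without the *Alb*-rich arrays. The BPN/3J mean dropped from 10.58 to 10.41, and the BPH/2J mean rose, since array 3 had the lowest value of its group (9.51).

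*Srebf1* encodes SREBP-1. The values were 9.24 to 9.60 in male BPN/3J mice (median 9.43), 8.89 to 9.25 in male BPH/2J mice (9.10), 9.41 to 9.72 in female BPN/3J mice (9.55) and 8.76 to 9.32 in female BPH/2J mice (8.90). Male groups overlapped by a single narrow step and female groups did not overlap. The difference was −0.33 (SE 0.0722, adjusted p = 0.00619 by limma) in males and −0.58 (SE 0.0855, adjusted p = 0.000395) in females, or −0.50 (adjusted p = 0.00721) without the *Alb*-rich arrays. The difference between these differences, −0.25 (95% interval −0.49 to −0.01), did not pass over all probe sets (adjusted p = 0.377).

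*Ggps1*, geranylgeranyl diphosphate synthase, makes the lipid that anchors many small GTPases. It ran from 9.61 to 9.88 in male BPN/3J mice (median 9.69), from 9.18 to 9.37 in male BPH/2J mice (9.27), from 9.64 to 9.88 in female BPN/3J mice (9.77) and from 9.34 to 9.44 in female BPH/2J mice (9.39). Neither sex showed overlap between the strains. Differences were −0.44 (SE 0.0535, limma adjusted p = 6.8e-05) in males and −0.38 (SE 0.0453, adjusted p = 7.38e-05) in females. *Mvd*, mevalonate diphosphate decarboxylase, lay at 9.20 to 9.46 in male BPN/3J mice (median 9.30), 9.00 to 9.18 in male BPH/2J mice (9.08), 8.44 to 8.52 in female BPN/3J mice (8.48) and 8.11 to 8.31 in female BPH/2J mice (8.20). The strains were again apart in each sex, by −0.22 (SE 0.0485, adjusted p = 0.00796) in males and −0.28 (SE 0.0396, adjusted p = 0.000266) in females.

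The strain difference depended on sex for *Idi1*, *Cyp51* and *Sqle*, which were higher in male BPH/2J mice, while with all arrays their female differences did not pass the test. The test of the difference itself called these 3 of the 27 genes, where 1.76% of all probe sets were called. At the Bonferroni threshold 0 of the 27 passed in limma (0.360% of probe sets did), with 8 at an unadjusted p under 0.05.

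*Idi1*, isopentenyl diphosphate isomerase, was at 10.47 to 10.74 in male BPN/3J mice (median 10.52), 11.19 to 11.48 in male BPH/2J mice (11.29), 9.20 to 9.56 in female BPN/3J mice (9.45) and 9.34 to 9.72 in female BPH/2J mice (9.56). BPH/2J males stood above all other arrays, and the female groups overlapped. In males it was 1.69-fold higher in BPH/2J, by 0.76 (SE 0.0618, limma adjusted p = 1.27e-06). In females the difference was 0.15 (95% interval −0.02 to 0.32, adjusted p = 0.247), and 0.27 (adjusted p = 0.0424) without the *Alb*-rich arrays. The interaction was −0.61 (SE 0.101, adjusted p = 0.00101), or −0.49 (adjusted p = 0.00753) without them. Its second probe set gave 0.75 in males (adjusted p = 7.52e-07) and an interaction of −0.62 (adjusted p = 0.000978).

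*Cyp51*, lanosterol demethylase, measured 11.27 to 11.49 in male BPN/3J mice (median 11.37), 11.77 to 11.86 in male BPH/2J mice (11.79), 11.45 to 11.71 in female BPN/3J mice (11.58) and 11.60 to 11.69 in female BPH/2J mice (11.64). The male groups were apart, and all BPH/2J females fell inside the range of BPN/3J females. The male difference was 0.43 (SE 0.0431, limma adjusted p = 9.37e-06), the female difference 0.06 (95% interval −0.05 to 0.16) and the interaction −0.38 (SE 0.0609, adjusted p = 0.000633), which was −0.39 (adjusted p = 0.00317) without the *Alb*-rich arrays. *Sqle*, squalene epoxidase, a rate-limiting step of sterol synthesis, ran from 10.55 to 10.70 in male BPN/3J mice (median 10.62), 10.82 to 11.05 in male BPH/2J mice (11.02), 10.14 to 10.47 in female BPN/3J mice (10.30) and 10.31 to 10.50 in female BPH/2J mice (10.36). Its male groups were also apart and its female groups overlapped. The values were 0.36 in males (SE 0.0481, adjusted p = 0.000132), 0.05 in females (95% interval −0.07 to 0.18) and −0.31 for the interaction (SE 0.0746, adjusted p = 0.0282). Without the *Alb*-rich arrays the interaction of *Sqle* was −0.26 and did not pass (adjusted p = 0.149), while that of *Pmvk* did (0.36, adjusted p = 0.015, against 0.26 and adjusted p = 0.157 with all arrays), where 1.47% of probe sets passed.

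**Figure D2:**
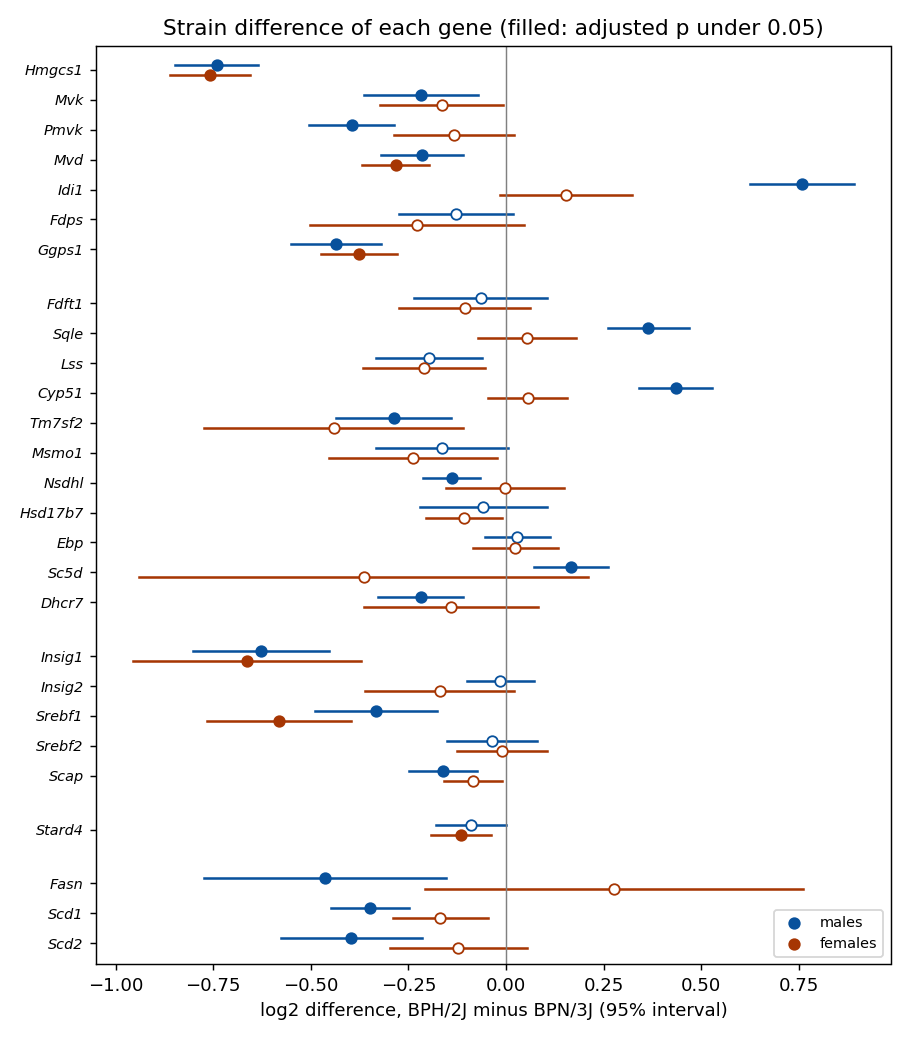
Difference in log2 expression between BPH/2J and BPN/3J (horizontal axis, bars are 95% intervals, 12 arrays each) for the 27 genes in order of role, in males (blue) and females (brown), with filled points where the adjusted p was under 0.05. In males 14 filled points lie to the left and those of *Idi1*, *Cyp51*, *Sqle* and *Sc5d* to the right. In females 6 filled points lie to the left. Filled or open, 22 points lie to the left and 5 to the right in each sex.

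By role, 5 of 7 mevalonate pathway genes were lower and 1 higher in male BPH/2J mice, and 3 of 7 were lower in female BPH/2J mice. Over all probe sets 7.70% were lower and 7.48% higher in the male comparison, and 6.48% lower and 8.01% higher in the female one. Without the *Alb*-rich arrays 3 were lower and 1 higher in female BPH/2J mice, where 10.5% of probe sets differed. *Pmvk*, phosphomevalonate kinase, lay at 8.14 to 8.35 in male BPN/3J mice (median 8.22) and 7.71 to 7.93 in male BPH/2J mice (7.86), with no overlap and a difference of −0.40 (SE 0.0503, limma adjusted p = 9.45e-05). Its female difference was −0.13 (95% interval −0.29 to 0.02). *Mvk*, mevalonate kinase, fell in males by 0.22 (−0.22, SE 0.0676, adjusted p = 0.0456), from 8.70 to 9.03 in BPN/3J to 8.54 to 8.80 in BPH/2J with overlapping groups, and in females the value was −0.17 (95% interval −0.32 to −0.01, adjusted p = 0.169). *Fdps*, farnesyl diphosphate synthase, did not pass in either sex, with −0.13 (95% interval −0.28 to 0.02) in males and −0.23 (−0.50 to 0.05) in females. The female values were −0.01 for *Fdps*, −0.03 for *Pmvk* and −0.10 for *Mvk* without the *Alb*-rich arrays.

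Among 11 sterol synthesis genes, 3 were higher and 3 lower in male BPH/2J mice and none passed in females in limma, where 4 had an unadjusted p under 0.05. Over all probe sets 7.48% were higher and 7.70% lower in the male comparison, and 14.5% differed in the female one. Female values that moved most without the *Alb*-rich arrays were those of *Sc5d*, from −0.37 (95% interval −0.94 to 0.21) to 0.08, and *Tm7sf2*, from −0.44 (95% interval −0.77 to −0.11) to −0.21. Besides *Cyp51* and *Sqle*, *Sc5d*, the sterol C5-desaturase, was higher in males by 0.17 (SE 0.0439, limma adjusted p = 0.0198), at 9.27 to 9.44 in BPH/2J against 9.08 to 9.27 in BPN/3J, with no overlap. The 3 lower genes in males were *Tm7sf2*, a sterol C14-reductase (−0.29, adjusted p = 0.0109, from 9.01 to 9.33 in BPN/3J to 8.70 to 9.04 in BPH/2J), *Dhcr7*, the reductase of the last step (−0.22, adjusted p = 0.00945, from 9.17 to 9.49 to 9.05 to 9.15), and *Nsdhl*, a sterol C4-decarboxylase (−0.14, adjusted p = 0.0129, from 11.41 to 11.50 to 11.26 to 11.38). The groups overlapped for *Tm7sf2* and not for *Dhcr7* and *Nsdhl*. The other 5 sterol genes, *Fdft1*, *Lss*, *Msmo1*, *Hsd17b7* and *Ebp*, did not pass in males. They ran from −0.20 for *Lss*, lanosterol synthase (95% interval −0.33 to −0.06, adjusted p = 0.0515), to 0.03 for *Ebp*, the sterol isomerase (95% interval −0.06 to 0.11).

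*Scap*, the SREBP escort, was lower in male BPH/2J mice by −0.16 (SE 0.0406, limma adjusted p = 0.0154), with 10.03 to 10.18 against 10.19 to 10.33 and no overlap. Its second probe set, with a mean of 5.56, gave 0.04 (adjusted p = 0.729), so the call rests on one of its probe sets. In females *Scap* differed by −0.09 (95% interval −0.16 to −0.01, adjusted p = 0.129). *Srebf2*, which encodes SREBP-2, and *Insig2* did not pass in either sex. *Srebf2* differed by −0.04 (95% interval −0.15 to 0.08) in males and −0.01 (−0.13 to 0.11) in females, and *Insig2* by −0.01 (−0.10 to 0.07) and −0.17 (−0.36 to 0.02), the last being −0.03 without the *Alb*-rich arrays.

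*Stard4*, a carrier of cholesterol between membranes, was lower in female BPH/2J mice, at 9.229 to 9.328 against 9.331 to 9.461 in BPN/3J with no overlap, by −0.12 (SE 0.0354, limma adjusted p = 0.0453). Without the *Alb*-rich arrays this did not pass (−0.09, adjusted p = 0.254), and in males *Stard4* differed by −0.09 (95% interval −0.18 to −0.001, adjusted p = 0.182). The 3 fatty acid genes were lower in male BPH/2J mice, where 7.70% of all probe sets were lower. *Scd1*, stearoyl-CoA desaturase, lay at 13.35 to 13.49 in male BPN/3J mice (median 13.44) and 12.97 to 13.21 in male BPH/2J mice (13.09), with no overlap and a difference of −0.35 (SE 0.0462, adjusted p = 0.000135). *Scd2*, its paralog, lay at 11.75 to 12.28 and 11.46 to 11.67 (−0.40, SE 0.0831, adjusted p = 0.00497), also without overlap. *Fasn*, fatty acid synthase, overlapped, at 10.92 to 11.86 and 10.90 to 11.21 (−0.46, SE 0.143, adjusted p = 0.044), and its call was lost on leaving out any of 10 arrays, with values of −0.49 to −0.40. In females none of the 3 passed in limma, with *Scd1* at −0.17 (adjusted p = 0.0666, and −0.19 with adjusted p = 0.0492 without the *Alb*-rich arrays), *Scd2* at −0.12 (95% interval −0.30 to 0.05) and *Fasn* at 0.28 (95% interval −0.21 to 0.76).

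Females were compared with males within each strain, and these comparisons use the same arrays as the strain comparisons. Most cholesterol synthesis genes were lower in females. In BPN/3J 13 of the 27 genes were lower and 2 higher, where 29.2% of all probe sets differed (14.8% lower and 14.4% higher), and in BPH/2J 14 were lower and 4 higher, where 28.9% differed (13.4% lower and 15.6% higher). The Bonferroni threshold of the methods left 5 and 4 genes, with 4.74% and 4.72% of probe sets. Groups did not overlap for 10 genes in BPN/3J and 12 in BPH/2J, against 17.6% and 18.2% of probe sets. The median over the 27 genes was −0.21 in BPN/3J and −0.16 in BPH/2J, against −0.02 and −0.003 for all probe sets. Without the *Alb*-rich arrays 15 were lower and 2 higher in BPN/3J, with *Fdft1* and *Tm7sf2* added, where 25.0% of probe sets differed. In BPH/2J 14 were lower and 3 higher, with *Srebf2* added and *Fasn* and *Ggps1* lost, where 27.5% differed.

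Lower in females of both strains were 12 genes, *Hmgcs1*, *Mvk*, *Mvd*, *Idi1*, *Sqle*, *Lss*, *Msmo1*, *Nsdhl*, *Hsd17b7*, *Dhcr7*, *Insig1* and *Scap*, where 9.47% of all probe sets were lower in both. They are 12 of the 13 genes lower in BPN/3J and 12 of the 14 lower in BPH/2J. *Scd1* was higher in females of both strains, and 19.6% of probe sets were called in the same direction in both. *Cyp51* was called in opposite directions. The adipocyte genes described further on also moved with sex in BPH/2J. There 5 of 9 were higher in females (median 0.53), against 15.6% of all probe sets, and 4 were without the *Alb*-rich array. With their mean as a covariate, 5 of the 12 genes lost their BPH/2J call by limma. They were *Lss* (−0.25, adjusted p = 0.135), *Msmo1* (−0.38, adjusted p = 0.109), *Nsdhl* (−0.07, adjusted p = 0.65), *Insig1* (−0.29, adjusted p = 0.188) and *Scap* (−0.14, adjusted p = 0.121). Without the covariate their values were −0.32, −0.55, −0.23, −0.49 and −0.14 in turn. *Dhcr7* lost its BPN/3J call by limma (−0.27, adjusted p = 0.0576). In BPH/2J the adipocyte mean ran from 8.40 to 9.30 in females and from 8.17 to 8.71 in males. A covariate that moves with sex widens the errors, so a lost call need not mean a smaller difference. The share of all sex calls lost in this fit was not computed. Of 10 adrenal cortex genes, 9 had sex differences above 0 and 1 below 0 in BPH/2J (median 1.74). By limma 2 were called higher and 1 lower there, where 28.9% of all probe sets differed. In BPN/3J 9 were also above 0 and 1 below (median 1.37), with 0 called higher and 1 lower, where 29.2% differed. With the adrenal cortex mean as a covariate *Nsdhl* also lost its BPH/2J call by limma (−0.17, adjusted p = 0.133).

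**Figure D3:**
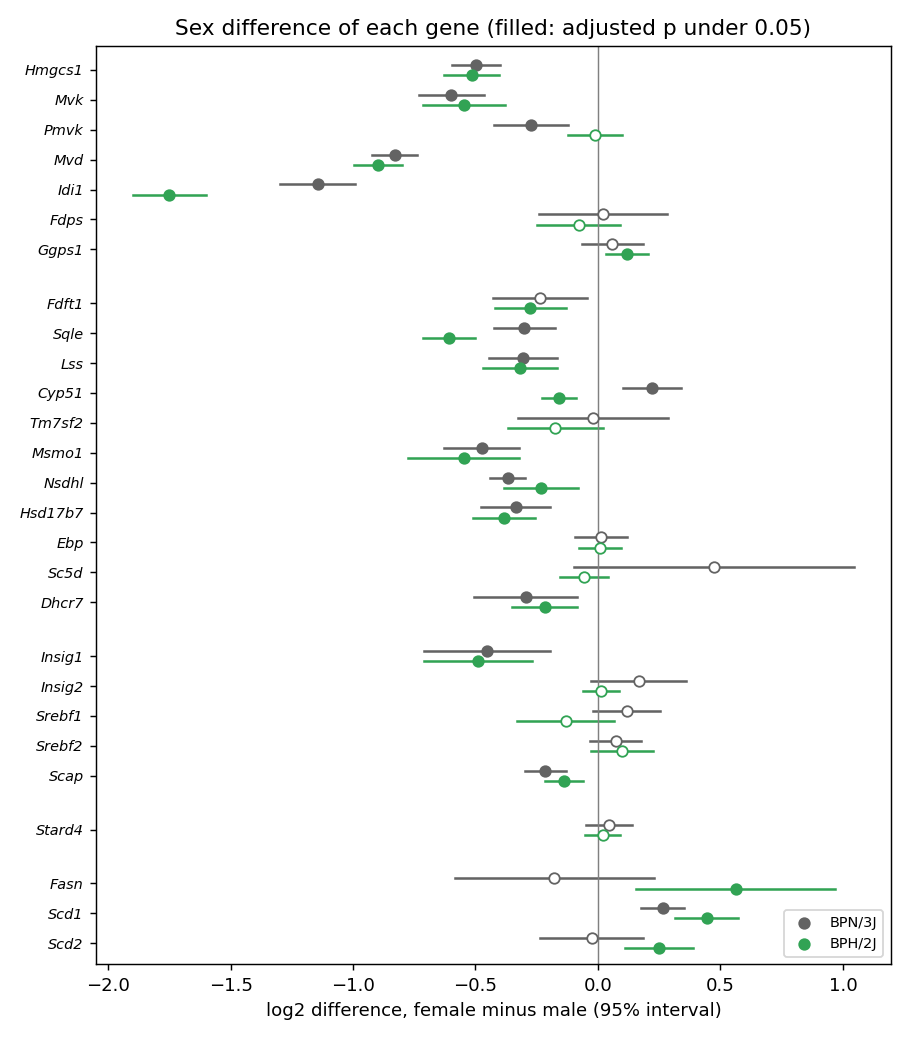
Difference in log2 expression between females and males (horizontal axis, bars are 95% intervals, 12 arrays each) for the 27 genes in order of role, in BPN/3J (grey) and BPH/2J (green), with filled points where the adjusted p was under 0.05. *Idi1* lies farthest to the left in both strains (−1.14 and −1.75), and *Scd1* is to the right in both.

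*Idi1* had the largest sex difference of the 27 genes in each strain, 2.21-fold lower in female BPN/3J mice (−1.14, SE 0.0709, limma adjusted p = 7.71e-08) and 3.36-fold lower in female BPH/2J mice (−1.75, SE 0.0695, adjusted p = 9.47e-10). The female and male ranges given above did not overlap in either strain. The second probe set gave −1.12 and −1.74. *Mvd* came next, at −0.83 (SE 0.0428, adjusted p = 1.32e-08) and −0.90 (SE 0.0457, adjusted p = 1.17e-08), also without overlap.

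*Mvk* ran from 8.22 to 8.39 in female BPN/3J mice (median 8.27) and from 7.82 to 8.31 in female BPH/2J mice (8.17), below all males of the same strain. It differed by −0.60 (SE 0.0612, limma adjusted p = 8.16e-06) and −0.55 (SE 0.0779, adjusted p = 0.000141). *Hmgcs1* was lower by −0.50 (SE 0.0444, adjusted p = 2.48e-06) and −0.52 (SE 0.0523, adjusted p = 7.56e-06), and *Insig1* by −0.45 (SE 0.119, adjusted p = 0.0113) and −0.49 (SE 0.102, adjusted p = 0.00261). The sexes overlapped for *Insig1* in BPN/3J, where the value was −0.62 (adjusted p = 0.000211) without the *Alb*-rich arrays. *Pmvk* was lower in female BPN/3J mice alone (−0.27, SE 0.0704, adjusted p = 0.0101), and its difference in BPH/2J was −0.01 (95% interval −0.12 to 0.10). *Ggps1* did not pass in BPN/3J (0.06, 95% interval −0.07 to 0.18) and was higher by 0.12 (adjusted p = 0.0385) in female BPH/2J mice. Its BPH/2J call was lost with the adipocyte (0.14, adjusted p = 0.128), adrenal cortex (0.13, adjusted p = 0.0597) or hepatocyte (0.11, adjusted p = 0.0638) mean as a covariate in limma.

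Of 11 sterol synthesis genes, 6 were lower and 1 higher in female BPN/3J mice, and 8 were lower and 0 higher in female BPH/2J mice by limma, all 8 of those with an unadjusted p under 0.05 being lower. Over all probe sets 14.8% were lower and 14.4% higher in BPN/3J females, and 13.4% and 15.6% in BPH/2J females. Without the *Alb*-rich arrays the BPN/3J counts were 8 lower and 1 higher, where 25.0% of probe sets differed. *Msmo1*, the sterol C4-methyl oxidase, ran from 10.33 to 10.70 in male BPN/3J mice (median 10.51), 10.09 to 10.55 in male BPH/2J mice (10.38), 9.90 to 10.21 in female BPN/3J mice (10.03) and 9.43 to 10.08 in female BPH/2J mice (9.83). Females lay below males within each strain, by −0.47 (SE 0.0705, adjusted p = 0.000206) and −0.55 (SE 0.105, adjusted p = 0.0014). *Sqle* was lower by −0.30 (SE 0.0572, adjusted p = 0.00137) and −0.61 (SE 0.049, adjusted p = 9.48e-07), with no overlap in either strain.

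*Hsd17b7*, a ketosteroid reductase of the pathway, ran from 10.12 to 10.53 in male BPN/3J mice and 10.12 to 10.38 in male BPH/2J mice, and from 9.87 to 10.02 and 9.78 to 10.02 in the females of these strains, with no overlap (−0.34, limma adjusted p = 0.0016, and −0.38, adjusted p = 0.000237). *Nsdhl* lay at 11.03 to 11.15 in female BPN/3J mice (−0.37, adjusted p = 2.09e-06, no overlap) and at 10.77 to 11.26 in female BPH/2J mice (−0.23, adjusted p = 0.0233, overlapping by a narrow step). *Lss* ran from 9.29 to 9.53 and 9.02 to 9.36 in males and from 8.95 to 9.33 and 8.73 to 9.07 in females (−0.30, adjusted p = 0.00283, and −0.32, adjusted p = 0.00397). *Dhcr7* was 8.66 to 9.26 in female BPN/3J mice (−0.30, adjusted p = 0.0349) and 8.69 to 9.10 in female BPH/2J mice (−0.22, adjusted p = 0.0161). For *Lss* and *Dhcr7* the sexes overlapped in both strains. *Fdft1*, squalene synthase, was lower in female BPH/2J mice (−0.28, adjusted p = 0.00676, with 10.02 to 10.39 against 10.40 to 10.69 in males) and had −0.24 (95% interval −0.43 to −0.04, adjusted p = 0.0642) in BPN/3J, where males ran from 10.42 to 10.89 and females from 10.16 to 10.56. Its BPH/2J call was lost with the adipocyte mean as a covariate in limma (−0.12, adjusted p = 0.378).

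*Cyp51* was 0.22 higher in female BPN/3J mice than in male BPN/3J mice (SE 0.0548, limma adjusted p = 0.00808) and 0.16 lower in female BPH/2J mice (−0.16, SE 0.0319, adjusted p = 0.00205), by the levels given above. *Scap* fell in females by 0.21 in BPN/3J (−0.21, adjusted p = 0.00101) and 0.14 in BPH/2J (−0.14, adjusted p = 0.0102), at 9.99 to 10.12 and 9.93 to 10.01, below the males of each strain. For its second probe set neither passed (−0.15, adjusted p = 0.151, and −0.10, adjusted p = 0.371). *Srebf1* did not pass in BPN/3J (0.12, 95% interval −0.02 to 0.25) or in BPH/2J (−0.13, 95% interval −0.33 to 0.07), nor did *Stard4* (0.04, −0.05 to 0.14, and 0.02, −0.05 to 0.09). *Tm7sf2* did not pass in BPN/3J (−0.02, 95% interval −0.32 to 0.29), where females 2 and 5 measured 9.65 and 9.69 and the other 4 females 8.92 to 9.01, and it was −0.25 (adjusted p = 0.011) without those arrays. *Srebf2* was 0.10 (95% interval −0.03 to 0.22) in BPH/2J and 0.14 (adjusted p = 0.0422) without its *Alb*-rich array.

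Of the 3 fatty acid genes 1 was higher in females of BPN/3J and 3 in females of BPH/2J, against 14.4% and 15.6% of all probe sets. The BPH/2J count was 2 without the *Alb*-rich array, where 27.5% of probe sets differed. *Scd1* was higher in females of BPN/3J (0.26, SE 0.0401, limma adjusted p = 0.00025) and of BPH/2J (0.44, SE 0.0603, adjusted p = 9.68e-05), at 13.60 to 13.78 and 13.39 to 13.73, above the males of each strain. *Scd2* was higher in female BPH/2J mice (0.25, SE 0.0642, adjusted p = 0.01, with 11.66 to 12.05 overlapping 11.46 to 11.67) and had −0.02 (95% interval −0.23 to 0.19) in BPN/3J. Its BPH/2J call was lost with the adipocyte mean (0.17, adjusted p = 0.25) or the adrenal cortex mean (0.22, adjusted p = 0.0533) as a covariate in limma. *Fasn* was higher in female BPH/2J mice (0.56, SE 0.188, adjusted p = 0.0388) over a wide range, 10.78 to 12.18 against 10.90 to 11.21 in males, and its call was lost without the *Alb*-rich array (0.55, adjusted p = 0.0663). The call was also lost with the adrenal cortex mean as a covariate in limma (0.30, adjusted p = 0.241). In BPN/3J *Fasn* had −0.18 (95% interval −0.58 to 0.23) with females at 11.00 to 12.04.

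Called in all 4 comparisons of 2 groups were *Hmgcs1*, *Mvd* and *Insig1*. Called in none were *Fdps*, *Ebp*, *Insig2* and *Srebf2*. *Ebp* had the narrowest spread of group means, with 10.31 and 10.34 in males and 10.32 and 10.35 in females for BPN/3J and BPH/2J in turn. *Fdps* ranged from 9.03 to 9.88 over all arrays, and *Insig2* from 10.17 to 10.73.

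Genes of other tissues moved with a few of the 27 genes. Each gene was set against the mean of a list of hepatocyte, adrenal cortex or adipocyte genes in a fit with the 4 group means, so that the slope, in log2 units of the gene per log2 unit of the list, comes from differences between mice of one group. On the hepatocyte list 2 of 27 genes had a slope (1.80% of all probe sets did), *Sc5d* at 0.21 (SE 0.0298, limma adjusted p = 4.33e-05) and *Insig2* at 0.07 (SE 0.0122, adjusted p = 0.00125). *Sc5d* measured 10.53 and 10.65 on BPN/3J female arrays 2 and 5, where the list mean was 11.51 and 11.79, and 9.08 to 9.44 on the other arrays. Without the *Alb*-rich arrays the slopes were 0.02 (adjusted p = 0.881) and 0.02 (adjusted p = 0.92), where 0.558% of probe sets had one. With all arrays the sex difference of *Sc5d* in BPN/3J was 0.47 (95% interval −0.10 to 1.05), and it was 0.01 (adjusted p = 0.933) without the *Alb*-rich arrays.

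On the adipocyte list *Fasn* alone had a slope, 0.84 (SE 0.125, limma adjusted p = 0.00139, where 0.350% of all probe sets had one), and 0.81 (adjusted p = 0.00393) without the *Alb*-rich arrays, where 0.177% had one. The adipocyte list mean was 8.40 to 9.30 in female BPH/2J mice (median 9.02), 7.53 to 8.37 in female BPN/3J mice (8.06), 8.17 to 8.71 in male BPH/2J mice (8.30) and 7.34 to 8.62 in male BPN/3J mice (8.29). The female groups of the 2 strains did not overlap in it. With this mean as a covariate the sex difference of *Fasn* in BPH/2J was −0.05 (adjusted p = 0.872) and the strain difference of *Fasn* in males −0.58 (adjusted p = 0.000144). *Hmgcs1*, *Ggps1* and *Srebf1* still passed in females with the covariate (−0.77, adjusted p = 0.00022, −0.35, adjusted p = 0.0251, and −0.64, adjusted p = 0.0294), and *Mvd* (−0.25, adjusted p = 0.0588), *Insig1* (−0.73, adjusted p = 0.106) and *Stard4* (−0.07, adjusted p = 0.602) did not. The slopes of these 6 genes on the list did not pass, from −0.08 for *Ggps1* (95% interval −0.19 to 0.03) to 0.02 for *Hmgcs1* (95% interval −0.09 to 0.13).

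On the adrenal cortex list 0 of 27 genes had a slope in limma (0.561% of all probe sets did), with 6 at an unadjusted p under 0.05, and *Dhcr7* had one without the *Alb*-rich arrays (0.07, SE 0.0148, adjusted p = 0.0412, where 0.565% had one). The adrenal cortex list mean had medians of 8.95 and 9.33 in the females of BPN/3J and BPH/2J and of 6.48 and 6.68 in their males, with overlapping ranges. The adrenal cortex makes steroids from cholesterol. The part of other tissues in the *Fasn*, *Sc5d* and *Dhcr7* values was not tested beyond these fits.

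**Figure D4:**
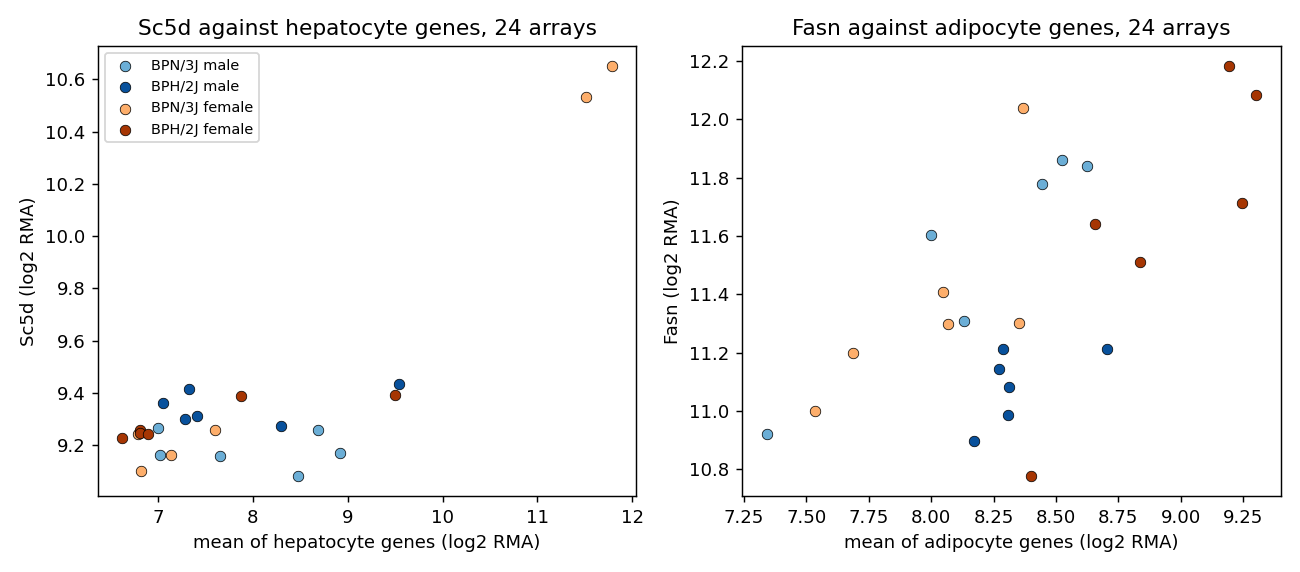
Log2 RMA expression of *Sc5d* against the mean of 18 hepatocyte genes (left) and of *Fasn* against the mean of 9 adipocyte genes (right), with 1 point per array coloured by group. In *Sc5d* BPN/3J female arrays 2 and 5 stand alone at 10.53 and 10.65, and *Fasn* has a slope of 0.84 within groups.

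Other genes of the pathway were described from lists. Outside the 29 genes, 6 further cholesterol pathway genes were measured. Over all probe sets 15.2% differed in the male strain comparison and 14.5% in the female one. In males 2 were higher in BPH/2J, *Cyp7b1*, the oxysterol hydroxylase (0.36, SE 0.0514, limma adjusted p = 0.000279), and *Hsd3b7*, a bile acid enzyme (0.34, adjusted p = 0.0117), and 1 was lower, *Lbr*, a second sterol C14-reductase (−0.26, adjusted p = 0.0367). In females 1 was lower, *Cyp7b1* (−0.91, SE 0.283, adjusted p = 0.0486), which was not called without the *Alb*-rich arrays (−0.52, adjusted p = 0.172). *Cyp7b1* ran from 11.72 to 11.99 in male BPN/3J mice, 12.17 to 12.30 in male BPH/2J mice, 7.15 to 9.04 in female BPN/3J mice and 6.88 to 7.20 in female BPH/2J mice. Its sex difference was far larger than that of any of the 27 genes, −3.89 (SE 0.282, adjusted p = 3.41e-07) in BPN/3J and −5.16 (SE 0.0533, adjusted p = 1.06e-15) in BPH/2J.

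Of 17 other fatty acid genes and SREBP-1 targets, 2 were higher and 2 lower in male BPH/2J mice (median −0.10), and 2 higher and 1 lower in female BPH/2J mice (median −0.001), where 15.2% and 14.5% of all probe sets were called. The female counts were 2 higher and 0 lower by limma, with a median of 0.08, without the *Alb*-rich arrays. *Me1*, malic enzyme, was higher in both (0.20, limma adjusted p = 0.00237, and 0.28, adjusted p = 0.00176). In males *Elovl5*, a fatty acid elongase, was higher (0.28, adjusted p = 0.000929) and *Mid1ip1*, an activator of acetyl-CoA carboxylase, lower (−0.26, adjusted p = 0.0231). In females *Acacb*, an acetyl-CoA carboxylase, was higher (0.21, adjusted p = 0.0464). Between the sexes 3 were higher and 6 lower in female BPN/3J mice, and 5 higher and 7 lower in female BPH/2J mice, against 29.2% and 28.9% of probe sets, and without the *Alb*-rich arrays 2 and 7 in BPN/3J and 4 and 6 in BPH/2J. *Elovl6*, an elongase of palmitate chosen after its values were seen, was higher in females of both strains, by 1.67 in each (SE 0.0508 and 0.0757). In the same fits as above 4 of the 17 had an adipocyte slope, *Thrsp* (1.56, adjusted p = 0.000295), *Acaca* (0.65, adjusted p = 0.00335), *Pnpla3* (0.79, adjusted p = 0.0146) and *Acacb* (0.27, adjusted p = 0.0219), where 0.350% of all probe sets had one. Without the *Alb*-rich arrays 3 of the 17 had one, where 0.177% of probe sets did.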

How the data were processed

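Total RNA of kidney tissue was hybridised to Affymetrix Mouse Gene 1.0 ST arrays. The authors summarised probe sets by RMA and deposited 1 value per probe set and array, read here as log2 expression from the range, 2.12 to 14.55. The software version was not given in the sources used here. Array medians lay between 6.89 and 6.97, and the number of arrays limits the precision.

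Deposited values were used without further normalisation, filter or offset. Strain, sex and number of each array came from its label. Each of the 28853 probe sets was tested by limma (version 3.58.1, R version 4.3.3), two-sided, on the 12 arrays of a comparison, or on all 24 for the interaction and the slopes. Calls were made at 0.05 after Benjamini-Hochberg adjustment across the whole array. The scripts were tested on simulated data. Probe symbols came from the platform annotation, in which 73.3% of probe sets had 1 symbol, and promoters from the RefSeq table.

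The members and the gene lists were chosen with earlier results of these data known. All measured members are accounted for, with ranges for those called in any comparison. Of other lists, up to 4 genes called with the largest strain differences are named. Alternatives were the methods' t-test and Bonferroni threshold, a low-expression filter at the 40th percentile, other scalings, a fit to all arrays, trended and robust variances, other-tissue covariates, a replicate block, arrays with *Alb* above 13 left out and each array left out in turn. Blood pressure and qPCR were not analysed here. Plots used matplotlib 3.10.9 under Python 3.11.15.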

Additional observations from a re-analysis of the deposited data

Results flagged for a closer look

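Single arrays stood apart from the other 5 of their group in 4 of the 108 gene-by-group sets tested by Dixon's criterion, which flags about 1 in 20 groups by chance. *Hmgcs1* was 12.045 on BPN/3J male array 1, against 12.194 to 12.262 on the others. *Fdps* was 9.051 on BPH/2J male array 3, against 9.267 to 9.39. *Sqle* was 10.817 on the same BPH/2J male array, against 10.978 to 11.05. *Srebf2* was 9.912 on BPH/2J female array 3, against 10.114 to 10.221, and that array is one of the 3 with *Alb* above 13.

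The strain difference was not the same in the sexes for 3 genes, by the interaction test on all 24 arrays in limma, where 1.76% of all probe sets were called. The female minus the male strain difference was −0.61 for *Idi1* (adjusted p = 0.00101), −0.38 for *Cyp51* (adjusted p = 0.000633) and −0.31 for *Sqle* (adjusted p = 0.0282). That of *Sqle* did not pass in limma without the *Alb*-rich arrays (−0.26, adjusted p = 0.149) or with the adipocyte mean as a covariate (−0.23, adjusted p = 0.238).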

How the results depend on the processing

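Leaving out each array in turn gave 16 to 18 genes in the male strain comparison, 5 to 6 in females, 14 to 16 for sex in BPN/3J, 16 to 17 for sex in BPH/2J, 2 to 3 for the interaction, 0 to 1 for the adrenal cortex slope (1 without BPN/3J male array 5, BPN/3J female array 5 or BPH/2J female array 3), 1 to 5 for the hepatocyte slope (1 without BPN/3J female array 5 and 5 without BPH/2J female array 3) and 1 to 1 for the adipocyte slope. The Bonferroni threshold gave 3, 1, 5 and 4 genes in the male strain, female strain, BPN/3J sex and BPH/2J sex comparisons, 0 for the interaction and 1 for the hepatocyte slope, and the methods' t-test with it gave 2, 1, 4 and 4. With the adipocyte mean as a covariate 3 genes remained called in the female strain comparison and 9 for sex in BPH/2J, where *Fasn* became −0.053. Shares of all probe sets were not computed for the covariate, replicate block, t-test, quantile or leave-one-out fits. For those counts a loss over the whole array cannot be told apart from a loss in these genes. The hepatocyte slope gave 0 genes without the *Alb*-rich arrays, and the adrenal cortex slope 1 without them and 1 after quantile normalisation. The adipocyte slope gave 0 genes with the 3 list means in 1 fit, where that of *Fasn* was 0.76 (adjusted p = 0.515). The *Scap* strain difference in males was 0.0402 with its other probe set. The cause of these changes was not tested. To look for pairing, the group mean of each probe set was subtracted and the remainders of same-numbered arrays were correlated. These correlations were −0.27 to 0.02 in the male and −0.57 to 0.34 in the female strain comparison (0 and 4 of 6 pairs above 0.1). For sex they were −0.34 to 0.44 in BPN/3J and −0.13 to 0.17 in BPH/2J (3 of 6 in each). The numbers were therefore not taken to pair the mice. The replicate block gave 13, 6, 15 and 13 genes in the 4 comparisons, 3 for the interaction and 0, 2 and 1 for the adrenal cortex, hepatocyte and adipocyte slopes. For single genes under the settings other than leaving out an array, 616 values kept direction and call, 157 lost the call and 2 changed sign, and under leaving out an array 763 kept both and 65 lost the call. Those 65 were *Fasn* for sex in BPH/2J (11 arrays) and for strain in males (10), *Stard4* in females (10), *Mvk* in males (9), the *Sqle* interaction (9), *Ggps1* for sex in BPH/2J (9), *Dhcr7* for sex in BPN/3J (6) and the *Insig2* hepatocyte slope (1).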

Other observations

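Of 7 measured genes of the liver X receptors (LXRs) and cholesterol efflux, 4 were lower and 0 higher in female BPH/2J mice, where 6.48% of all probe sets were lower. They were *Nr1h3*, which encodes LXR alpha (−0.26, SE 0.0463, limma adjusted p = 0.00151), the cholesterol exporters *Abcg1* (−0.26, adjusted p = 0.0128) and *Abca1* (−0.24, adjusted p = 0.0194), and *Rxra*, the partner of LXRs (−0.19, adjusted p = 0.00393). The median over the list was −0.26, and −0.17 without the *Alb*-rich arrays. Without them *Abca1* was not called (−0.21, adjusted p = 0.125) and the other 3 were. The exporter genes *Abcg5* and *Abcg8*, not called in this comparison and named after their values were seen, had slopes on the hepatocyte list (0.35, adjusted p = 9.65e-08, and 0.28, adjusted p = 1.73e-06), while those of the 4 called genes did not pass. In males 0 of the 7 passed in limma, with 2 at an unadjusted p under 0.05 and a median of −0.12. The differences between the sexes in these strain differences did not pass for any of the 7, with 2 at an unadjusted p under 0.05. Of 10 measured uptake and transport genes, *Mylip*, the ligase that degrades lipoprotein receptors (−0.32, adjusted p = 0.0043), and the oxysterol-binding protein gene *Osbpl2* (−0.12, adjusted p = 0.0325) were lower in female BPH/2J mice, and *Osbpl2* was not called without the *Alb*-rich arrays (−0.11, adjusted p = 0.109), where 10.5% of probe sets were. In the same list *Lipa*, lysosomal acid lipase, was higher in male BPH/2J mice (0.20, adjusted p = 0.0286), where 7.48% of probe sets were higher.

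Of 8 measured genes of SREBP processing and turnover, *Erlin1*, which encodes an endoplasmic reticulum protein that binds SCAP complexes, was higher in female BPH/2J mice (0.33, SE 0.0572, limma adjusted p = 0.00148), and *Mbtps1*, the site-1 protease that cleaves SREBPs, was lower in male BPH/2J mice (−0.13, SE 0.0372, adjusted p = 0.0339). Over all probe sets 8.01% were higher in the female strain comparison and 7.70% lower in the male one. Of 9 measured genes of the isoprenoid branch, which leads to dolichol, ubiquinone and prenylated proteins, 0 passed in either strain comparison in limma, with 1 at an unadjusted p under 0.05 in each. In females against males 4 were lower and 1 higher in BPN/3J (median −0.11) and 6 lower and 0 higher in BPH/2J (median −0.17), where 29.2% and 28.9% of probe sets were called, down to −0.65 and −0.61 for *Dhdds*, dehydrodolichyl diphosphate synthase, chosen after its values were seen. Leaving out the *Alb*-rich arrays gave 4 lower and 0 higher in BPN/3J (median −0.07) and 7 lower and 0 higher in BPH/2J.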
